A study of Glycine max with 12 samples.

Results

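Trifoliate leaves of the aphid-resistant soybean line LD05-16060 were compared with and without soybean aphids (Aphis glycines) at day 21 of a growth chamber experiment. The comparison rests on 6 of the 12 arrays of the series, chosen by sample titles that code resistant plants with aphids (replicates 1 to 3) and resistant control plants (replicates 1 to 3). LD05-16060 carries Rag1, a resistance gene against soybean aphids, and its controls carry it too, so both groups are called R plants here. Infested R plants received 30 aphids each and uninfested R plants received none. The other 6 arrays hold the susceptible line SD01-76R (S plants), 3 infested in the same way and 3 uninfested, also at day 21. The study counted far more aphids on infested S than on infested R plants by the time of sampling, so line and aphid load cannot be told apart where R and S responses are set side by side. Each array measured RNA from the third trifoliate leaves, pooled from a pair of plants, so the p-values below measure the spread between 3 pooled samples per group. Plants were covered with nets, aphids were washed and rubbed off before freezing, and control leaves were handled alike. Infested plants stood on the left side of the chamber and uninfested plants on the right, so the effect of aphids and that of the chamber side cannot be told apart in either line.

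Aphids reach the phloem with stylets that pass between plant cells, and their saliva and body surface carry molecules that plant cells can recognize. Such recognition starts pattern-triggered immunity, in which calcium enters the cell, calcium sensors and MAP kinases relay the signal, and transcription factors of the WRKY, zinc finger and NAC families switch on defense genes. Secretion of defense compounds through SNARE proteins and reinforcement of the cell wall follow. The comparison of infested with uninfested R plants asks how much of such a response leaves with Rag1 show after long exposure to aphids.

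The array carries 37593 soybean probe sets. A probe set is a cluster of short probes for a transcript, and a gene may have more than 1. Values are log2 signals, quantile normalized over the soybean probe sets of all 12 arrays, and differences are infested minus uninfested on the log2 scale unless a fold is named. The 6 R arrays correlated with each other at 0.957 to 0.983, and the median standard deviation over 3 arrays was 0.209 for infested and 0.192 for uninfested R plants. The median of the 60 control probe sets was 5.42 over the R arrays. No background was removed, so a difference with one group near that level is uncertain in size and probably too small. The 19 probe sets of the photosynthesis list, the leaf markers, had a median level of 10.07, and 16 of them lay above the control level. The lists for seeds and nodules had medians of 5.30 and 5.33, at the control level. Infested R replicate 2 and uninfested R replicate 2 shared deviations from their group means with a correlation of 0.49, and the arrays numbered 2 of all 4 groups with correlations of 0.30 to 0.52. They stood apart in a clock gene, LHY, at 7.18 and 7.47 on those 2 R arrays against 5.80 to 6.10 on the other 4. On an HSP90A1 probe set for the chaperone HSP90 they were low, at 7.11 and 6.14, against 7.80 to 10.12 on the others. In pooled leaf tissue, fewer cells of a type and less RNA per cell cannot be told apart.

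No transcript passed the tests across all probe sets in infested R plants. With limma, 0 of 37593 probe sets met the cutoffs of the study (fold change of 2 or more with p no larger than 0.0001 and a Storey q of 0.04 or less), and 0 had a Benjamini-Hochberg adjusted p under 0.05. The smallest adjusted p was 0.472, and at an unadjusted p at or under 0.05 there were 449 higher (1.19%) and 327 lower (0.87%) probe sets. The same counts in infested S plants were 346 higher (0.92%) and 43 lower (0.114%) at those cutoffs, and 945 higher (2.51%) and 339 lower (0.902%) with an adjusted p under 0.05. A p that misses the threshold does not show that R transcripts were unaffected, and the values below describe the transcripts with the clearest separation between arrays.

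At a fold of at least 2 and an unadjusted p at or under 0.05, called relaxed criteria here, 92 probe sets (0.245% of those tested) were higher and 8 (0.0213%) lower in infested R plants. Of the 92, 46 had all 3 infested arrays above all 3 uninfested arrays, an order that 2.77% of all probe sets showed. Of the 8 lower ones, 7 had the 3 infested arrays below, against 3.48% of all probe sets. The median difference was 1.28 over the 92 and -1.19 over the 8, values that the criteria themselves select, against -0.01 over all soybean probe sets. The higher share of the relaxed probe sets was 92% and became 81.2% on the values as deposited. At an unadjusted p at or under 0.05 it was 57.9%, 73.1% with median centering, 49.4% with no moderation and 50.5% without uninfested R replicate 1. Single arrays moved these counts. Without infested R replicate 2, 266 probe sets were higher and 72 lower by the relaxed criteria, and without uninfested R replicate 3, 45 were higher and 12 lower. Without infested R replicate 1 the higher count was 183, without uninfested R replicate 2 the counts were 159 and 20, and without uninfested R replicate 1 the lower count was 15. All 92 kept a difference above 0 under each of the settings tried in which they were measured. That was nearly fixed in advance, since these arrays chose the 92 and several settings leave the difference itself unchanged. Of the 92, 21 met the relaxed criteria whichever single R array was left out. The plot of relaxed counts by setting shows how far they moved.

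**Figure D1:**
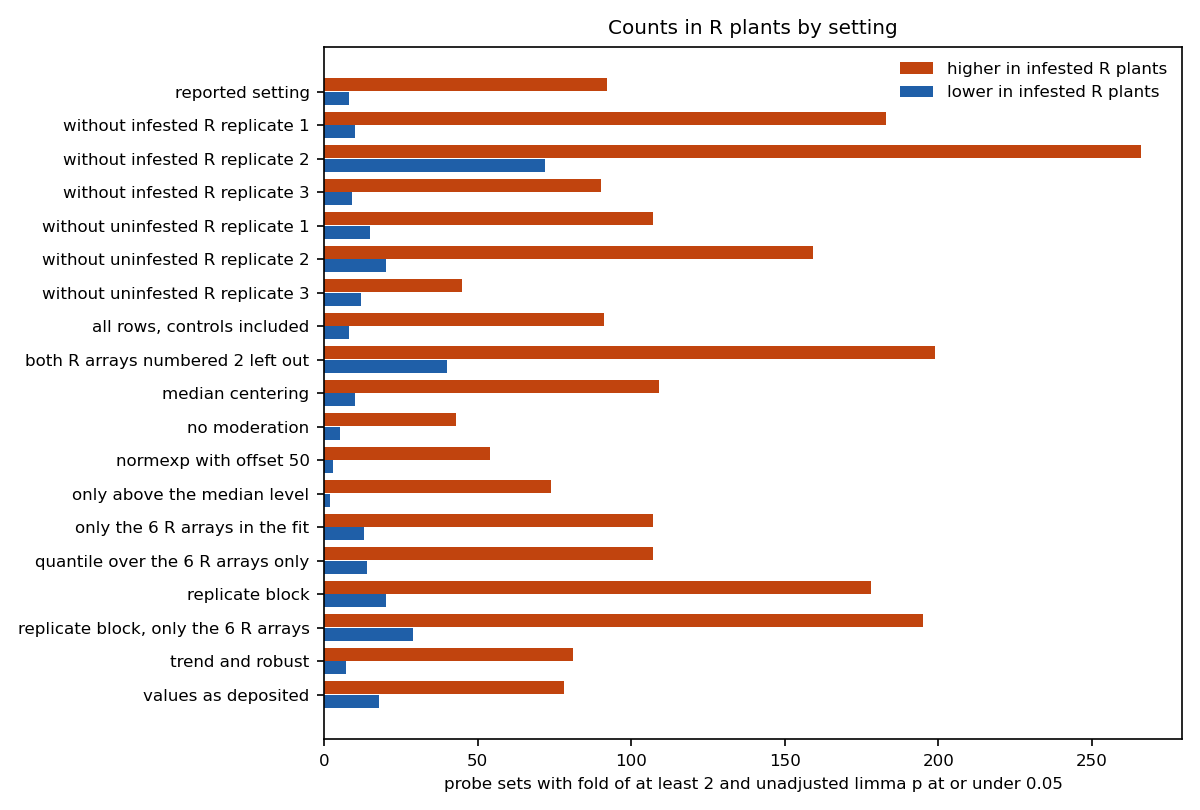
Bars give the number of probe sets higher (orange) or lower (blue) in infested R plants at a fold of at least 2 and an unadjusted limma p at or under 0.05, for the reported setting and each alternative. The higher count was 92 in the reported setting, 43 without moderation and 266 without infested R replicate 2.

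The smallest p belonged to a calcium sensor gene, while the list of calcium signaling genes held no probe set at an unadjusted p at or under 0.05. Glyma.04g194800, annotated as a calcium-binding EF-hand protein, had signals of 8.11, 7.75 and 8.52 in infested and 6.25, 6.85 and 6.16 in uninfested R plants (replicates 1 to 3). Its lowest infested array lay well above its highest uninfested one. It was higher by 1.71 (SE 0.24, 95% interval 1.18 to 2.23), a fold of 3.26, with the smallest p of the whole comparison (adjusted p = 0.47, limma). In S plants it rose by 2.54 (adjusted p = 0.00043). Glyma.04g136600, similar to the calmodulin-like protein CML38, stood at 6.29, 7.50 and 6.56 in infested and 5.96, 5.60 and 5.41 in uninfested R plants, again without overlap. That was a difference of 1.12 (SE 0.30, 95% interval 0.47 to 1.78), against a rise of 3.92 in S plants (adjusted p = 0.00014). A second EF-hand gene, Glyma.18g260700, was higher by 1.12 with no overlap (8.82, 9.19 and 9.41 against 8.06, 8.35 and 7.65). A calmodulin-related gene, Glyma.02g245700, was higher by 1.17 with overlapping arrays (6.79, 8.54 and 7.84 against 6.25, 7.60 and 5.80). The last 3 genes lie outside the naming rule and were chosen after their values were seen. On that list of calmodulins and calcium-dependent kinases, matched by gene symbol (8 genes), 14 of 17 probe sets were higher (46.8% of all probe sets were) and 0 passed that p, with a median of 0.19. The calmodulin SCAM-4 was highest there at 0.65 and 0.52, and it rose by 1.79 and 1.90 in S plants.

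Genes for zinc finger transcription factors were among the higher probe sets. No list was fixed for them, so no count over the family is given. Glyma.15g040700, a C2H2 zinc finger factor, had signals of 9.33, 10.48 and 10.44 against 8.16, 8.80 and 6.67. The groups did not overlap, and uninfested replicate 3 was the lowest array. The difference was 2.21 (SE 0.63, 95% interval 0.83 to 3.59), a fold of 4.63, and S plants rose by 3.54 (adjusted p = 0.0098). Glyma.03g173300, another C2H2 factor, had the largest difference among the relaxed probe sets, 2.85 (SE 1.09, 95% interval 0.48 to 5.22), and 6 probe sets with no zinc finger annotation came between it and Glyma.15g040700. Its arrays overlapped, with 7.98, 11.45 and 9.81 against 6.72, 8.42 and 5.54, and replicate 2 was highest in both groups. SCOF-1, a cold-induced C2H2 zinc finger gene of soybean, was higher by 2.18, 2.07 and 1.81 on its 3 probe sets. On the first, the arrays read 9.14, 11.75 and 9.94 against 8.0, 9.27 and 7.02, which overlapped, with replicate 2 highest in both groups. SCOF-1 was named after its values were seen. A gentler and steadier difference was that of Glyma.12g183800, an AN1-type zinc finger gene matching the Arabidopsis stress-associated protein SAP3. Its first probe set read 9.34, 9.89 and 9.72 against 8.72, 8.96 and 8.17, with no overlap and a difference of 1.03 (SE 0.25, 95% interval 0.49 to 1.57). Its other probe sets were higher by 0.91 and 0.88, also without overlap, and S plants rose by 2.00 on the first (adjusted p = 0.0017).

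The 36 transcription factor genes that the study lists for S plants were read in R plants on 44 probe sets. Of these, 41 were higher in infested R plants, against 46.8% of all probe sets. At an unadjusted p at or under 0.05, 12 were higher (background 1.19%) and 0 lower. By the relaxed criteria 5 were higher (background 0.245%). Their median was 0.72 in R and 2.64 in S plants. The study chose them on the S arrays, so the S values are no independent evidence. Its model took both lines together, so the R arrays had a part in the spread behind that choice. The GRAS factor gene Glyma.07g266500 read 8.25, 10.05 and 8.82 against 8.19, 8.11 and 7.73, a difference of 1.03 with no overlap, though infested replicate 1 was close to the controls and the value was 0.52 without infested replicate 2. The GATA factor gene Glyma.04g008900 was higher by 1.07 and 0.72 on its 2 probe sets, values that were 0.49 and -0.06 without infested replicate 2. Glyma.05g215900, a WRKY gene, was higher by 0.98 and 0.78. On its first probe set the infested arrays read 8.39, 11.19 and 8.65 and the uninfested ones 8.37, 8.84 and 8.06. That difference rested on infested replicate 2, and without it the value was 0.09. Glyma.16g199000, a dehydration-responsive element-binding factor, was higher by 0.59 in R plants, or 0.04 without infested replicate 2, against a rise of 5.57 in S plants.

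WRKY factors as a family had mostly positive differences of small size. Of 104 probe sets for 53 WRKY genes, 82 were higher (46.8% of all probe sets were). At an unadjusted p at or under 0.05, 6 were higher (background 1.19%) and 0 lower. In 11 of the 104 all infested arrays lay above the uninfested ones (background 2.77%). The median difference was 0.12 in R and 0.81 in S plants. WRKY48 read 8.15, 8.12 and 8.17 against 7.71, 7.69 and 7.79, and WRKY32 read 8.22, 8.49 and 7.98 against 7.60, 7.84 and 7.64. Both were narrow and free of overlap, with differences of 0.42 (95% interval 0.05 to 0.78) and 0.54 (95% interval 0.20 to 0.88). A WRKY60 probe set was higher by 0.70, also without overlap. Further probe sets of WRKY32, WRKY48 and WRKY60 had overlapping groups and differences of -0.06 to 0.39, apart from 1 for WRKY48 at 0.52 without overlap, and these 3 genes were chosen after their values were seen. Probe sets with the symbol WRKY63 but different gene models differed in sign, at 0.77 for Glyma.17g222500 and -0.53 for Glyma.14g102900. NAC factors (20 genes, 41 probe sets) had 28 probe sets higher, against 46.8% of all, and a median of 0.11. NAC6, a stress-induced member, read 10, 9.25 and 9.57 against 8.96, 8.11 and 8.67 and was higher by 1.03 without overlap (SE 0.40, 95% interval 0.15 to 1.90). MYB factors (68 genes, 107 probe sets) leaned the other way in their tails, with 5 lower and 1 higher at that p (background 0.87% and 1.19%) and a median of -0.04. MYB179 read 6.69, 6.74 and 6.50 against 7.39, 7.23 and 7.42, a difference of -0.71 (SE 0.20, 95% interval -1.14 to -0.27) with no overlap, and 0.33 in S plants. The bZIP list (65 genes, 100 probe sets) had a median of -0.04. Its BZIP68 was higher by 0.68 without overlap (6.05, 5.90 and 5.93 against 5.56, 5.09 and 5.19, 95% interval 0.33 to 1.04) and rose by 1.20 in S plants. The uninfested arrays of BZIP68 lay near the control level, so the size is uncertain. In the AP2/ERF list (15 genes, 23 probe sets, median 0.11) the RAV gene was higher by 0.92 and 0.91. BZIP68 and RAV were also chosen after their values were seen.

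**Figure D2:**
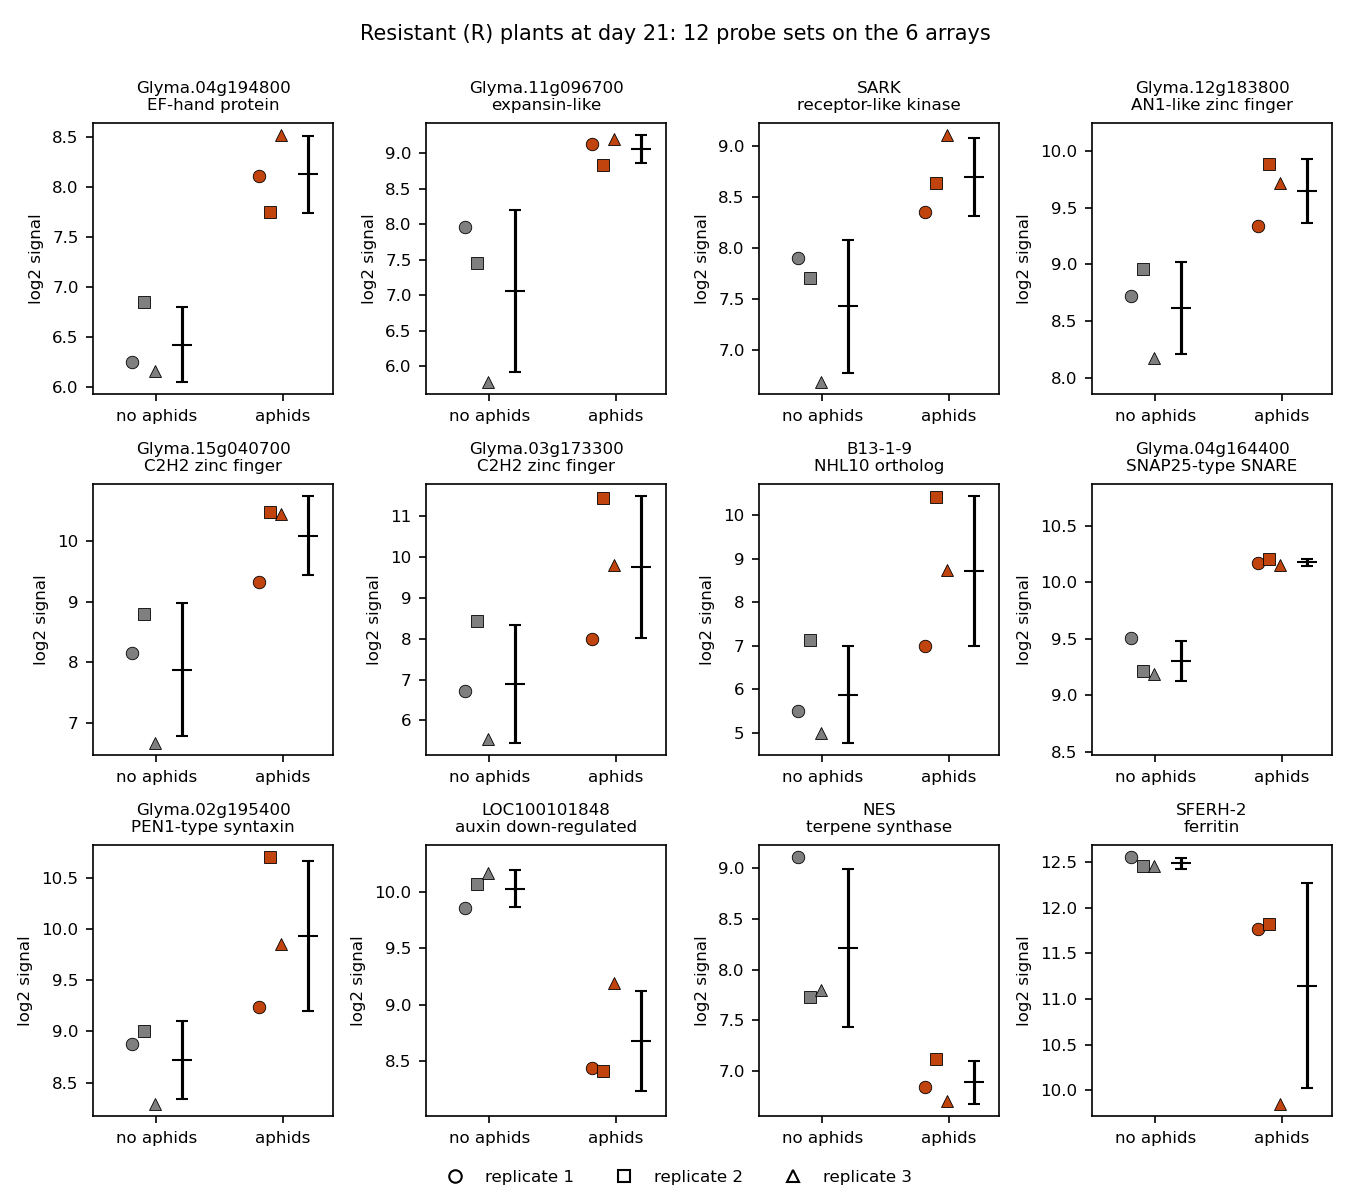
Each panel plots the log2 signal of 1 probe set on the 3 uninfested (grey) and 3 infested (orange) R arrays, with the replicate number as the symbol and the mean and standard deviation beside the points. In the EF-hand, expansin-like, SARK, AN1 zinc finger, Glyma.15g040700, SNAP25-type and PEN1-type panels the infested arrays lie above all uninfested ones, in the LOC100101848, NES and SFERH-2 panels they lie under all of them, and in Glyma.03g173300 and B13-1-9 the groups overlap.

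Among markers of pattern-triggered immunity, the NHL10 group stood out and the kinase group did not. NHL10 encodes a small membrane protein of Arabidopsis that is induced by bacterial and fungal elicitors. All 4 soybean orthologs were higher in infested R plants (46.8% of all probe sets were), with a median of 0.98 (3.50 in S plants). B13-1-9 (Glyma.03g201300), annotated as syringolide-induced, read 6.99, 10.42 and 8.73 against 5.50, 7.13 and 5.01. Infested replicate 1 lay below uninfested replicate 2, so the groups overlapped by that pair. The difference was 2.83 (SE 0.92, 95% interval 0.83 to 4.84), a fold of 7.14, and it was 1.98 without infested replicate 2. Glyma.03g201000 read 8.04, 9.53 and 8.34 against 7.35, 7.59 and 7.05, a difference of 1.31 with no overlap, or 0.86 without infested replicate 2. The other orthologs, Glyma.03g201100 and Glyma.03g201500, were higher by 0.63 with overlap and by 0.65 without. These values were 0.32 and 0.23 without infested replicate 2. For Glyma.03g201500, infested replicates 1 and 3 read 5.31 and 5.47, near the control level, so its size is uncertain. MPK3 (Glyma.U021800), a MAP kinase of the same signaling, read 9.12, 10.37 and 9.26 against 9.20, 9.26 and 8.99. Its groups overlapped, and the difference was 0.43 (95% interval -0.28 to 1.14) or 0.04 without infested replicate 2, against a rise of 2.37 in S plants. For the WRKY33 ortholog the difference was 0.22 and for the PTi1-4 kinase gene Glyma.10g009100 it was 0.09 (-0.26 and -0.15 without infested replicate 2), where S plants rose by 2.69 and 2.63. NDR1b, which encodes a membrane protein needed for several resistance proteins in Arabidopsis, read 7.44, 8.20 and 7.70 against 7.08, 7.01 and 6.40 and was higher by 0.95 without overlap (SE 0.35, 95% interval 0.18 to 1.72).

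Transcripts that the study's tables describe as parts of the secretory SNARE machinery had positive differences. Glyma.04g164400, a SNAP25-type SNARE gene, read 10.17, 10.21 and 10.15 in infested and 9.51, 9.22 and 9.19 in uninfested R plants. The infested arrays were nearly identical and clear of the controls, and the difference was 0.87 (SE 0.18, 95% interval 0.47 to 1.27), a fold of 1.83. Glyma.02g195400 encodes a syntaxin like Arabidopsis PEN1, which brings defense cargo to the site of fungal entry. It read 9.24, 10.70 and 9.85 against 8.88, 9.0 and 8.29, without overlap, a difference of 1.21 (SE 0.39, 95% interval 0.36 to 2.06). The rises in S plants were 1.88 and 2.70. All 7 probe sets annotated as syntaxin, SNAP25 or Exo70 exocyst subunit were higher in infested R plants (46.8% of all probe sets were), 3 at an unadjusted p at or under 0.05 (background 1.19%), with a range of 0.27 to 1.21 and a median of 0.74 (2.06 in S plants). Only probe sets that the study's tables describe could enter this set. Those descriptions come mostly from its table of S plants, which favors genes that rose there. The shares over all probe sets are therefore no matched background for these 7.

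Single genes such as an expansin-like gene, SRC2 and SARK were also higher, while the cell wall and receptor lists had medians below 0. The expansin-like gene and SRC2 belong to neither list. The cell wall list (10 genes, 19 probe sets) had 4 probe sets higher, against 46.8% of all probe sets. It had 0 at an unadjusted p at or under 0.05 and a median of -0.12. The list of receptors and resistance proteins (16 genes, 24 probe sets) had 10 higher, near that share, and a median of -0.04. Of the 10, 3 passed that p (background 1.19%), all for SARK. Glyma.11g096700 belongs to the expansin-like family, relatives of proteins that loosen cell walls. It read 9.13, 8.83 and 9.20 against 7.96, 7.45 and 5.78 on one probe set and 9.27, 8.86 and 9.05 against 7.78, 7.62 and 6.81 on the other. Neither overlapped, and uninfested replicate 3 was the lowest array on both. The differences were 1.99 (SE 0.53, 95% interval 0.84 to 3.14) and 1.66, and the first was 1.35 without uninfested replicate 3. SRC2, a soybean cold-regulated gene, read 9.83, 10.43 and 9.53 against 8.63, 8.91 and 8.38, a difference of 1.29 with no overlap. It lies outside the naming rule. SARK, a senescence-associated receptor-like kinase of soybean, read 8.35, 8.64 and 9.11 against 7.90, 7.70 and 6.68. The groups did not overlap, and the difference was 1.27 (SE 0.32, 95% interval 0.57 to 1.98), or 0.90 without uninfested replicate 3. Further SARK probe sets were higher by 0.99 and 0.48 without overlap and by 0.34 with overlap. In S plants the first SARK probe set differed by 0.41 (adjusted p = 0.59), and the R response exceeded the S response by 0.86 (adjusted p = 0.79, limma). HS1pro1, a homolog of a sugar beet nematode resistance gene, was higher by 1.45 and 1.27, with replicate 2 the highest array in both groups and overlap between them, and the values were 0.55 and 0.39 without infested replicate 2. Glyma.05g238100, a Nudix hydrolase gene, read 6.99, 8.76 and 7.65 against 6.48, 6.43 and 5.48, a difference of 1.67 with no overlap.

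Several leading probe sets carry no function in the annotation used. Glyma.03g015800, whose best match is an Arabidopsis protein of unknown function, read 6.25, 8.01 and 7.65 against 5.14, 5.60 and 5.11, a fold of 4.05 with no overlap. Its uninfested arrays lay near the control level, so that fold is uncertain. LOC100500561 read 7.35, 7.19 and 7.32 against 6.21, 6.04 and 5.78, a difference of 1.28. The probe set GmaAffx.72348.1.S1_at read 7.27, 7.06 and 7.30 against 5.76, 6.35 and 5.69, a difference of 1.28 (adjusted p = 0.64, limma). For the last 2 the infested arrays lay within a narrow band above the controls. GmaAffx.11259.1.S1_at and GmaAffx.80474.1.S1_at were higher by 1.85 and 1.76 without overlap, with S differences of 1.27 (adjusted p = 0.12) and 1.54 (adjusted p = 0.052). For every probe set named here other than Glyma.04g194800 and GmaAffx.72348.1.S1_at, the adjusted p in R plants was 1 after rounding.

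By the relaxed criteria fewer transcripts were lower, and most of them are unnamed. LOC100101848 (Glyma.10g214500), an auxin down-regulated gene, read 8.44, 8.41 and 9.19 in infested and 9.85, 10.07 and 10.16 in uninfested R plants. The groups were well apart, with a difference of -1.35 (SE 0.39, 95% interval -2.21 to -0.49), and S plants fell by 1.60 (adjusted p = 0.047). NES (Glyma.13g250400), annotated as a terpene synthase, an enzyme class that makes volatile and defensive terpenes, read 6.84, 7.12 and 6.70 against 9.11, 7.73 and 7.80. No array overlapped, uninfested replicate 1 was the highest, and the difference was -1.33 (SE 0.55, 95% interval -2.53 to -0.12), or -0.88 without that array. The unnamed Gma.6676.1.S1_at, Gma.9086.1.S1_at and Gma.6081.1.S1_at differed by -1.16, -1.08 and -1.01 without overlap. Their infested means of 5.38, 5.20 and 5.49 were at the control level, so the sizes are uncertain. Ferritins, the iron storage proteins of plastids, had 10 of 13 probe sets (6 genes) lower (53.2% of all were) with a median of -0.56, in 4 of them without overlap (background 3.48%), but 0 at an unadjusted p at or under 0.05. Without infested replicate 3 the list's median was -0.21. SFERH-2 (Glyma.01g124500) read 11.77, 11.82 and 9.85 against 12.55, 12.45 and 12.45. The uninfested arrays were nearly equal and infested replicate 3 was far lowest, and the difference of -1.34 (95% interval -2.83 to 0.15) was -0.69 without it. The median difference of the ferritin list was -0.57 in S plants.

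The transcripts that responded in S plants differed in the same direction in R plants for the most part. Of the 346 probe sets higher in infested S plants at the study's cutoffs, 334 (96.5%) were higher in infested R plants, where 46.8% of all probe sets were. Their median difference was 0.48 in R plants, with quartiles of 0.24 and 0.74, and 2.10 in S plants. In R plants an unadjusted p at or under 0.05 was found for 93 of them, all higher (background 1.19%), and 122 had all infested arrays above all uninfested ones (background 2.77%). Their median signals were 6.84, 7.64 and 6.81 on the infested and 6.48, 6.72 and 6.31 on the uninfested R arrays, so infested replicate 2 was highest and the lowest infested array was just above the highest uninfested one. Without infested replicate 2, 288 (83.2%) were still higher and 46 passed the unadjusted p. Without uninfested replicate 3 these were 321 and 49. With the S and R arrays normalized and fitted separately, 199 of 205 were higher in R plants, with a median of 0.61. Of the 205, 65 were higher at the unadjusted p. On the values as deposited, 202 of 209 were higher and 52 passed. The S values chose these probe sets, so their larger S differences are no finding. In the reported setting the R arrays had a part in the spread behind that choice. The shares over all probe sets are therefore no matched background for the 346. The median of the ratio of the R to the S difference was 0.229. Of the 43 probe sets lower in S plants, 37 (86.0%) were lower in R plants (53.2% of all), with a median of -0.23 and 11 free of overlap (background 3.48%). With the lines normalized and fitted separately these were 19 of 29 (65.5%).

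**Figure D3:**
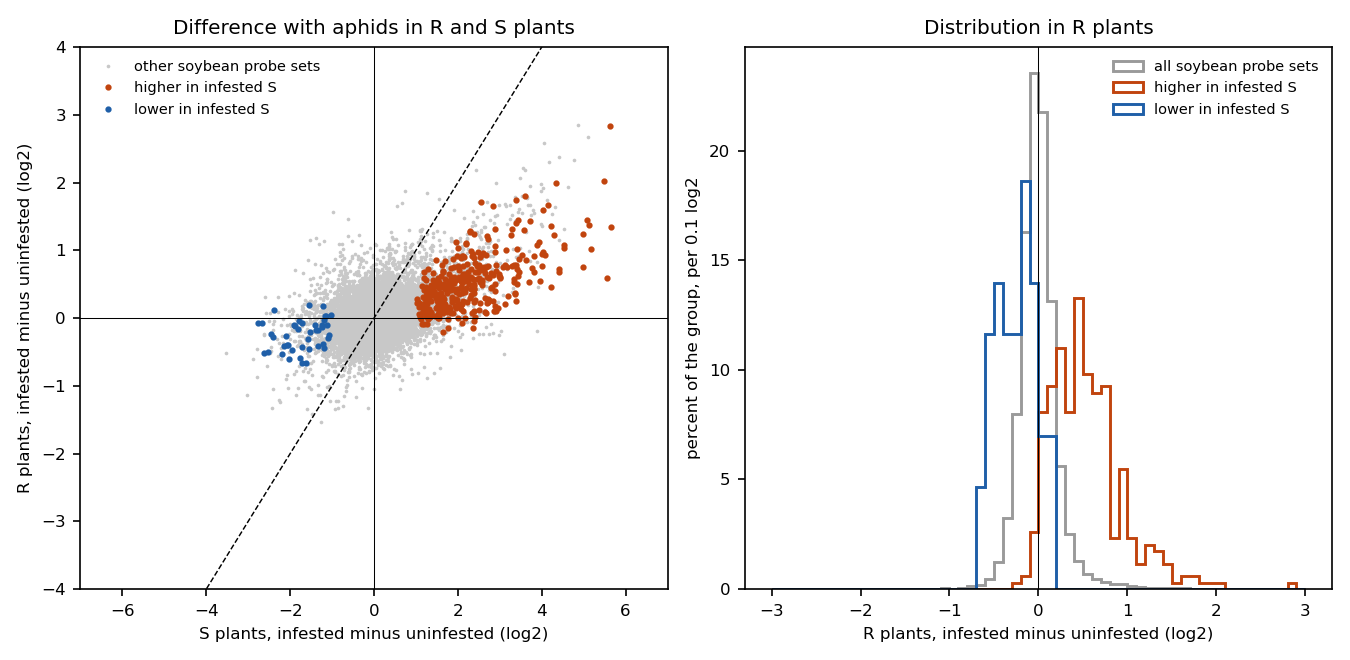
The left plot sets the infested minus uninfested difference of each soybean probe set in R plants (vertical, log2) against that in S plants (horizontal, log2), with the dashed line where both are equal. The right plot gives the distribution of the R difference, where the 346 probe sets higher in infested S plants (orange) centre on 0.48 and all soybean probe sets (grey) on -0.01.

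The 92 relaxed probe sets divided by their behavior in S plants. In S plants 90 had a difference above 0 (43.1% of all probe sets did), and 62 rose with an adjusted p under 0.05. Of those 62, 42 had replicate 2 as the highest array in both the infested and the uninfested R group (15.3% of all probe sets). Of the other 30, 2 had that pattern, and in 26 infested replicate 2 was the lowest infested array. The share of all probe sets with that last order is not given here. The 30 had a median of 1.14 in R and 0.71 in S plants, 7 carried a gene name or model, and 25 had a larger difference in R than in S plants. In the R minus S test 0 of these 25 had a larger R response at an adjusted p under 0.05, and the smallest p among the 30 had an adjusted p = 0.64 (limma). SARK is one of them, and DOF10, a Dof zinc finger gene, is another, at 7.02, 4.79 and 7.49 against 5.47, 5.05 and 5.19. DOF10 was named after its values were seen. Infested replicate 2 was its lowest array of all 6. The part of the shared deviations of the arrays numbered 2 in these values was not tested.

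The response in R plants was smaller than in S plants for 3 probe sets by the test of the difference itself (0.00798% of those tested), and 0 were larger, at an adjusted p under 0.05. At the cutoffs of the study 2 were smaller (0.00532%) and 0 larger. At an unadjusted p at or under 0.05 the R response was below the S response for 1435 probe sets (3.82%) and above it for 1165 (3.1%). Glyma.07g043000, an auxin-repressed-like gene, read 6.15, 6.49 and 6.52 in infested and 5.89, 6.08 and 6.16 in uninfested R plants, which overlapped by 1 array. It was higher by 0.34 in R plants and rose by 2.32 in S plants, a difference of -1.98 (adjusted p = 0.036, limma). LOC100779018, of unknown function, was near the control level in R plants at 5.52, 5.80 and 5.83 against 5.50, 5.70 and 5.64. Its R difference was 0.11 against 2.87 in S plants (adjusted p = 0.048, limma). Glyma.15g142200, without annotated function, was higher by 1.38 in R plants with no overlap (7.10, 6.91 and 6.30 against 4.97, 5.93 and 5.27) and rose by 5.13 in S plants (adjusted p = 0.040, limma). These calls depended on single arrays. The count was 0 without any 1 of infested R replicates 1 or 3, uninfested R replicates 1, 2 or 3, or uninfested S replicates 2 or 3. It was 140 without infested R replicate 2, and 1, 33 and 37 without infested S replicates 1, 2 and 3, and 10 without uninfested S replicate 1.

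Transcripts that fell or rose in S metabolism showed little in R plants. The study's phenylpropanoid list for S plants (15 genes, 20 probe sets) had 16 probe sets higher (46.8% of all were). At an unadjusted p at or under 0.05, 1 was higher (background 1.19%), and the median was 0.15 (-1.64 in S plants). Chalcone synthase, the entry enzyme of flavonoid synthesis, had 6 of 12 probe sets higher with a median of 0.07 (1.05 in S plants). The isoflavonoid branch (20 genes, 40 probe sets) had 0 at that p and a median of -0.07. GLU (Glyma.08g022300), an endoglucanase of the cell wall, differed by -0.54 and -0.41 in R plants and fell by 2.19 and 2.15 in S plants. The isoflavonoid glycosyltransferase gene Glyma.15g221300 differed by 0.10 and 0.07, or by -0.16 and -0.29 without infested replicate 2. Asparagine synthetase (LOC547877), which makes an amide for nitrogen transport, read 7.25, 9.76 and 6.72 against 6.99, 8.62 and 8.72. These values were spread in both groups, with a difference of -0.20 in R plants and a rise of 3.89 in S plants. Its sign in R plants depended on single arrays, at -1.12 without infested replicate 2 and 0.40 without infested replicate 3.

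In the hormone and defense effector lists few probe sets passed even the unadjusted p, and the shares of higher members varied (46.8% over all probe sets). Jasmonate synthesis (18 genes, 37 probe sets) had a median of -0.05 with 1 probe set higher and 0 lower at an unadjusted p at or under 0.05, and jasmonate response genes had -0.09. The ethylene list had a median of 0.03, where ACS1, which makes the ethylene precursor, was higher by 0.27 on a probe set that rose by 2.75 in S plants. The salicylate list (3 genes, 4 probe sets), with EDS1-2 and PAD4, had a median of 0.28 and 0 at that p. Pathogenesis-related and other defense proteins (10 genes, 19 probe sets) had 17 probe sets higher and a median of 0.19 (1.45 in S plants), but 0 passed an unadjusted p and in 0 were the arrays free of overlap. Their median level of 5.51 was near the control level. Soyasaponin synthesis had 0 of 6 probe sets higher and a median of -0.05, against -1.81 in S plants. Glutathione S-transferases (37 genes, 58 probe sets) had a median of -0.02, and GSTU62, chosen after its values were seen, was higher by 0.86 without overlap. Aquaporins (21 genes, 38 probe sets) had a median of -0.13 and ran from -0.60 to 0.54. PIP1-4, chosen after its values were seen, had a difference of -0.48. PAP25, an acid phosphatase gene, differed by -0.37 and -0.31 in R plants and fell by 2.17 and 2.00 in S plants. Sieve element occlusion genes, whose proteins plug phloem sieve tubes, had a median of 0.03 at a level of 5.20, the control level. The median of the photosynthesis list was -0.04. In the 33 lists 0 probe sets had an adjusted p under 0.05 in R plants, and the plot of list members shows their spread.

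**Figure D4:**
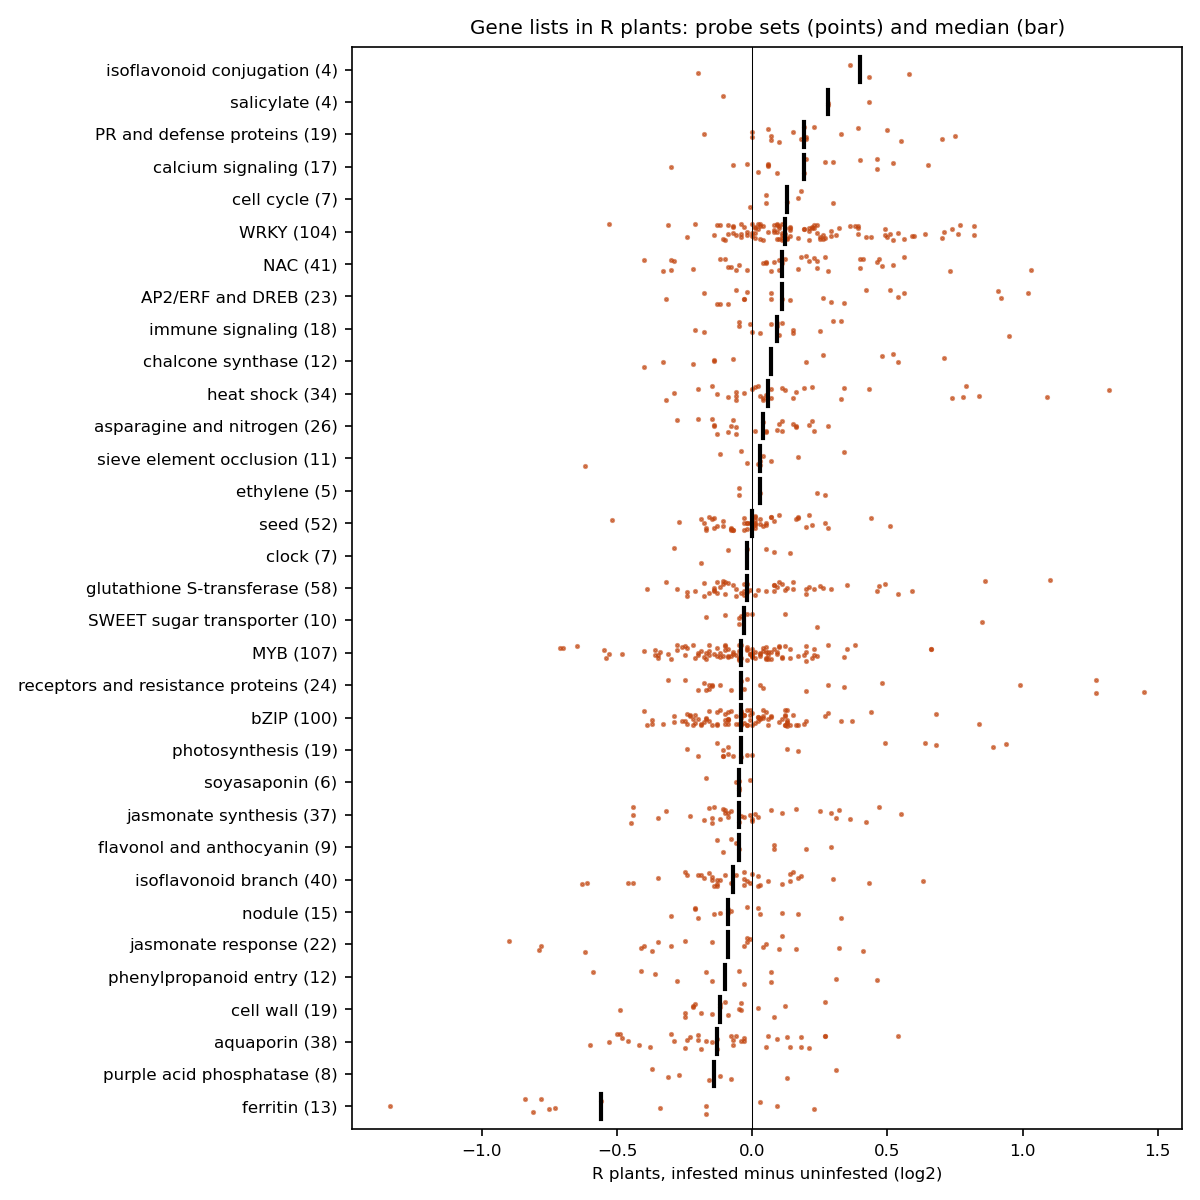
Points are probe sets of each gene list (number of probe sets in parentheses), placed by their infested minus uninfested difference in R plants (log2), and bars are list medians. Medians run from -0.56 for ferritin to 0.40 for isoflavonoid conjugation (2 genes, 4 probe sets), with salicylate at 0.28 and pathogenesis-related and other defense proteins at 0.19.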

How the data were processed

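The deposited table holds log2 probe set values of the Affymetrix Soybean Genome Array (37653 rows, 37593 soybean probe sets and 60 controls) for 12 arrays in 4 groups. The authors' methods give GCRMA, and the submitters' processing notes name RMA, GCRMA and limma, with versions not given in the sources used here. However, 2 to the power of the deposited value was a whole number for 99.6% of entries and array medians differed (7.00 to 7.69 in R plants), so no background correction or scaling between arrays was visible. Quantile normalization over the rows of soybean was therefore applied, and the values as deposited were kept as an alternative.

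The linear model (limma 3.58.1, R 4.3.3) had a mean for each of the 4 groups, took all 12 arrays, and used empirical Bayes moderation with no block. P-values were adjusted by Benjamini-Hochberg over all soybean probe sets. Storey q used a lambda of 0.5. The code was tested on simulated data. The arrays' number limits the precision. No columns of the authors' comparisons were used.

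Of the soybean probe sets, 8677 had 1 gene symbol, 370 several and 28546 none (1676 with a name other than a LOC number). Gene models and descriptions came from the study's tables, mainly that of S plants, so naming favors genes that responded there. Of the 92 relaxed higher probe sets, 58 were named, 41 of them with a gene model from those tables. Of the 8 lower ones, 2 were named. Named genes were the 15 probe sets with the smallest p in each direction (fold of at least 2, no overlap, above the control level; 54 higher and 12 lower qualified, and all 12 were kept), genes the paper names, members of lists past the relaxed criteria or at the ends of a list, and the 10 with the smallest p in the R minus S test. Others are marked as chosen after their values were seen. The comparison, members, lists and tests were chosen with earlier results of these data known.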

Additional observations from a re-analysis of the deposited data

Results flagged for a closer look

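For 3 probe sets the response to aphids differed between R and S plants in the test of that difference (limma, adjusted p under 0.05). For Glyma.07g043000, an auxin-repressed-like gene, the R response minus the S response was -1.98 (adjusted p = 0.036). For LOC100779018 it was -2.76 (adjusted p = 0.048) and for Glyma.15g142200 it was -3.75 (adjusted p = 0.040). With median centering the adjusted p for LOC100779018 was 0.088. On the values as deposited the 3 adjusted p-values were 0.31, 0.31 and 0.15, and without uninfested R replicate 3 each was 0.15. The uninfested signals of LOC100779018 and Glyma.15g142200 in R plants were near the control level of 5.42.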

How the results depend on the processing

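In R plants 0 probe sets met the study's cutoffs or an adjusted p under 0.05 in the reported setting and in each of the 18 alternatives, among which the smallest adjusted p was 0.127. Counts at weaker thresholds moved, and the cause was not tested. The relaxed higher count of 92 became 43 without moderation, 54 with normexp and an offset of 50, and 199 without both R arrays numbered 2. The relaxed lower count of 8 became 5, 3 and 40 in those settings, 2 above the median level, 13 with only the 6 R arrays in the fit, 14 with quantile normalization over them, and 18 on the values as deposited. At an unadjusted p at or under 0.05 the counts of 449 and 327 became 229 and 83 above the median level, where fewer probe sets were tested, 132 and 109 on the values as deposited, and 844 and 566 without both arrays numbered 2. The lower count was 159 with median centering. With single arrays left out, the relaxed counts ran from 45 to 266 and from 9 to 72, and those at the unadjusted p from 285 to 1174 and from 239 to 935.

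Replicate numbers were not used to pair the R arrays in the reported setting. Same-numbered arrays had correlations of deviations of 0.10, 0.49 and -0.12, and the highest between different numbers was 0.39. The arrays numbered 2 of all 4 groups correlated at 0.30 to 0.52. The labels do not say whether a replicate number marks a block, and these values cannot decide it. With the replicate number as a block, counts were 178 and 20 by the relaxed criteria and 912 and 598 at the unadjusted p, or 195, 29, 978 and 554 with only the R arrays. In the R minus S test the block gave 60 at the study's cutoffs and 67 at an adjusted p under 0.05, against 2 and 3, and 0 and 0 on the values as deposited. Left-out arrays gave 0 to 98 and 0 to 140. The block left the counts of 0 in R plants as they were.

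Of probe sets higher in S plants, those higher in R plants numbered 199 with S and R fitted separately and 202 on the values as deposited, because fewer were selected (205 and 209), and 288 to 336 with single R arrays left out. Those at the unadjusted p numbered 52 as deposited, 56 without both arrays numbered 2 and 46 to 132 with single arrays left out. Of those lower in S plants, 19 of 29 and 82 of 93 were lower in R plants in the first 2 settings, and 30 to 40 with single arrays left out. Of the 2031 values of the 115 named R differences under the alternatives, 65 kept their direction but no longer passed the unadjusted p, and 5 moved by more than the spread between arrays. For 30 of the 115, none at that p in the reported setting, 62 values had the opposite sign, and the cause was not tested. Settings added after seeing the data were both arrays numbered 2 left out, the block with only the R arrays, and those for the S-selected probe sets.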
